A study of Homo sapiens with 10 samples.

Results

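The ATF4 amino acid response genes are the transcription factor ATF4, its partner factors and its known target genes in amino acid synthesis, amino acid transport and tRNA charging. They were taken as a fixed list of 35 gene symbols, all 35 of which were found and tested among the 26256 genes of the table of untreated cells and the 55736 genes of the table of the Nutlin-3a experiment. RNA was read from MCF10A cells, a nontransformed and immortalized human mammary epithelial line, and from G12V cells, which are MCF10A cells transduced by lentivirus with the HRas oncogene carrying that change and selected with hygromycin. Both were untreated, with 2 replicates each, and the comparison asks what the oncogene changed. In the other experiment parental MCF10A cells received 10 µM Nutlin-3a, which frees p53 from MDM2, or its vehicle DMSO for 4 h, with 3 replicates each. All cells shared a medium with cholera toxin, EGF, insulin, hydrocortisone and horse serum. The G12V cells were a selected population from a single parental line, transduced along with a GFP vector. The authors report that these cells first stopped growing and grew again after a few weeks. The effects of transduction, selection, outgrowth and the oncogene therefore cannot be told apart.

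ATF4 protein is made mainly when the translation factor eIF2 is phosphorylated on its alpha subunit, by GCN2 when uncharged tRNAs accumulate, by PERK under stress of the endoplasmic reticulum, and by PKR or HRI under other stresses. It binds DNA together with C/EBP proteins at composite sites called C/EBP-ATF response elements and switches on genes that make, import and charge amino acids. Because this control acts on translation, the mRNA of ATF4 is an incomplete guide to the amount of its protein, which was not measured here.

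The response element has a core of TGATGNAA, where N is any base, which reads TTNCATCA on the opposite strand. RefSeq promoters, 250 bases before to 50 bases after each start on GRCh38.p14, were matched for 29 of the 35 genes, and the core was searched on both strands. It was present in 13 of 45 member promoters (28.9%), belonging to 13 of the 29 genes (44.8%), against 1270 of 35116 promoters of all genes (3.62%), or 1217 of 27305 genes (4.46%). PSPH, SHMT2, ALDH1L2, SLC7A11, LARS and YARS were not matched. The list is largely one of known ATF4 targets, so a higher share among the members follows in part from how they were chosen. A match describes letters in the window and is not a measured binding site. The windows below are printed 5′ to 3′ on the strand of each gene, with the core in capitals, to show that the same letters stand before or just after the start of genes of different roles. They come from chr7:97872458-97872487 (minus strand, first base of the core 68 bases before the start) for ASNS, chr15:40953251-40953280 (plus strand, 209 before) for CHAC1, chr19:33374060-33374089 (plus strand, 42 before) for CEBPG and chr11:62881719-62881748 (plus strand, 38 after) for SLC3A2. The synthetase windows come from chr16:70289675-70289704 (minus strand, 187 before) for AARS, chr11:3057407-3057436 (minus strand, 2 before) for CARS, chr9:92293692-92293721 (minus strand, 13 before) for IARS, chr12:57488053-57488082 (plus strand, 4 before) for MARS, chr18:57621804-57621833 (minus strand, 15 after) for NARS and chr5:33440956-33440985 (plus strand, 3 after) for TARS.
ASNS: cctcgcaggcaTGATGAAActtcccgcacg
CHAC1: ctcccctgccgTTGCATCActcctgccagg
CEBPG: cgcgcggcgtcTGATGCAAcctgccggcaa
SLC3A2: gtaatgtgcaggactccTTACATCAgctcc
AARS: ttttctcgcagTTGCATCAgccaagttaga
CARS: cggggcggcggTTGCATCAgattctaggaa
IARS: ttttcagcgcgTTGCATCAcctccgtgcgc
MARS: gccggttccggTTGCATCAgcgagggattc
NARS: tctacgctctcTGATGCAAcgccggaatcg
TARS: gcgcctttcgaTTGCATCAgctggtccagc
SLC7A1, SLC1A5 and GARS also held the core. Among these 6 printed synthetases, AARS, CARS, IARS, MARS and TARS held it as TTGCATCA and NARS as TGATGCAA, its reverse complement.

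Libraries held 21538593 to 23683975 counts in the untreated experiment and 15453226 to 17378734 in the Nutlin-3a experiment. Values are given as CPM, the reads of a gene scaled to a common library size, which are not corrected for gene length and are therefore compared only within a gene. Genes are called DE at an adjusted p under 0.05 from edgeR's quasi-likelihood test, adjusted over all genes tested, with an absolute log2 fold change above 0.5. HRAS, which checks the labels, had 72.6 and 65.9 CPM in MCF10A and 631 and 515 CPM in G12V cells. Epithelial markers were present in all libraries. The leukocyte and endothelial markers summed to 19.7 to 42.8 CPM over 7 genes in the untreated libraries. In the treated libraries, where 6 of the 7 were found, they summed to 2.22 to 8.29 CPM. PTPRC was at or near 0, but 2 of these markers had enough reads to be tested in the untreated experiment and 1, CD14, in the other. In G12V cells 5 of 8 epithelial markers (CDH1, EPCAM, KRT5, KRT14 and KRT17) were DE lower. Over the 8 the median log2 fold change was -2.59 and the lowest -11.8, so at least 1 marker was nearly lost. LAMB3 alone was above 0 (log2 fold change 1.01, not DE). Summed levels, which include LAMB3, were 9701 and 13519 CPM in MCF10A against 2720 and 5699 CPM in G12V cells. Of 5 mesenchymal markers tested 2 (CDH2 and ZEB1) were DE higher, with summed levels of 823 and 1007 CPM against 1376 and 1801 CPM and COL3A1 at 0, but COL1A1 was lower in both G12V libraries (log2 fold change -1.14, not DE). The part of these shifts in the results below was not tested. In bulk RNA, fewer cells with a transcript and less of it per cell cannot be told apart.

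In G12V cells most of the ATF4 amino acid response genes lay above their MCF10A level, though few passed the test, and 5 of the 6 amino acid transporters lay below it. MTHFD2, VLDLR and STC2 were DE higher and SLC7A5 and SLC3A2 DE lower, so 3 of 35 members rose, where 5.01% of all 14376 tested genes did, and 2 fell, where 5.95% did. VLDLR had enough reads to be tested only in the G12V libraries, so it entered the test through the group where it was high. The log2 fold change was above 0 in 29 members and below 0 in 6, with a median of 0.75 beside -0.0011 over all tested genes. All libraries of G12V cells were above all of MCF10A in 23 members and below in 3, against 27.5% and 27.4% of all genes. An unadjusted p under 0.05 was met by 21 members and by 25.6% of all genes. With only 2 libraries a group, the calls depended on the test. By edgeR's exact test 14 members were DE higher and 2 lower, beside 8.56% of all genes higher and 1306 of 14376 lower. By DESeq2 12 were higher and 2 lower, beside 6.77% of all genes higher and 1187 of 16323 lower.

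**Figure D1:**
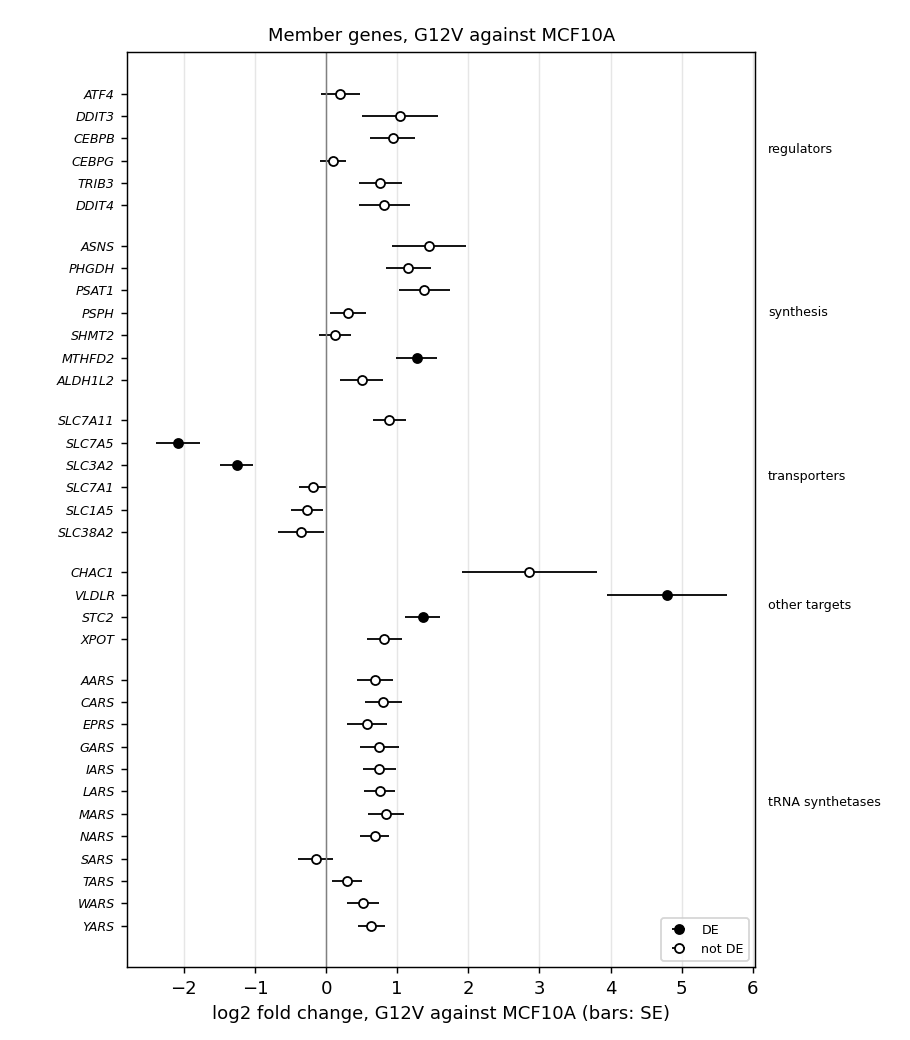
Log2 fold change of each member in G12V against MCF10A cells (x axis) with its standard error as bars, members on the y axis in groups by role, filled points DE. Transporters lie mostly left of 0, with SLC7A5 at -2.08, and 29 of the 35 members lie right of it.

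The regulators were all above 0 and none was DE, with log2 fold changes from 0.09 to 1.05. ATF4 itself, on chromosome 22 from 39916564 to 39918691 (hg19), had 374 and 480 CPM in MCF10A and 398 and 585 CPM in G12V cells. These levels overlapped, and on the log2 scale they differed by 0.20 (SE 0.28, adjusted p = 0.725 by edgeR). CEBPB, a C/EBP factor that pairs with ATF4, had 125 and 176 CPM against 211 and 365 CPM, which did not overlap but missed the threshold (log2 fold change 0.93, SE 0.32, adjusted p = 0.134 by edgeR). TRIB3, a pseudokinase that restrains ATF4, had 88.1 and 85.5 CPM against 104 and 191 CPM. DDIT4, an inhibitor of mTORC1, had 342 and 484 CPM against 516 and 942 CPM. In TRIB3 and DDIT4 both G12V libraries were the higher, with the second far above the first, and the adjusted p from edgeR was 0.183 and 0.221. DDIT3, the stress factor CHOP, was low in all 4 libraries, at 2.45 and 4.84 CPM against 4.58 and 10.5 CPM, and CEBPG, another partner of ATF4, was nearly level at 56.3 and 59.1 CPM against 56.3 and 66.6 CPM. DDIT3 and MARS overlap by 68 bases on opposite strands in this annotation, and since the library kit does not mark strand, reads there cannot be assigned to one of them.

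The genes of serine, asparagine and folate metabolism were all above 0, with a median log2 fold change of 1.16 over 7 genes, and 1 of them passed the test. MTHFD2, a mitochondrial folate enzyme, lies on chromosome 2 from 74425690 to 74442424. It had 144 and 115 CPM in MCF10A and 238 and 390 CPM in G12V cells. The groups did not overlap, and MTHFD2 rose by 1.28 on the log2 scale (SE 0.29, adjusted p = 0.0450 by edgeR). PHGDH, which takes the first step from glycolysis into serine, had 52.8 and 54.2 CPM against 82.7 and 156 CPM. PSAT1, which takes the next step, had 109 and 60.6 CPM against 171 and 272 CPM. Neither overlapped, and both fell just short of the threshold, at 1.16 (SE 0.31, adjusted p = 0.0715) and 1.38 on the log2 scale (SE 0.36, adjusted p = 0.0648) by edgeR. ASNS, which makes asparagine, had 30.5 and 24.5 CPM against 36.0 and 114 CPM, so that 1 G12V library stood far above the other 3 (log2 fold change 1.45, SE 0.52, adjusted p = 0.147). ALDH1L2, a mitochondrial folate dehydrogenase, had 127 and 91.8 CPM against 117 and 192 CPM and overlapped. PSPH, the last enzyme of serine synthesis, and SHMT2, which turns serine into glycine in mitochondria, had the smallest values of the group, at log2 fold changes of 0.31 and 0.13.

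Among the transporters the heterodimer of SLC7A5 and SLC3A2, which exchanges large neutral amino acids such as leucine for glutamine, was lower in G12V cells in both of its chains. SLC7A5, the transporting chain on chromosome 16 from 87863629 to 87903100, had 2924 and 1962 CPM in MCF10A and 584 and 569 CPM in G12V cells. It fell by 2.08 on the log2 scale (SE 0.31, adjusted p = 0.0117 by edgeR). SLC3A2, the heavy chain on chromosome 11 from 62623484 to 62656355, had 635 and 481 CPM against 226 and 241 CPM. Both G12V libraries were far below both MCF10A libraries, and SLC3A2 fell by 1.26 on the log2 scale (SE 0.23, adjusted p = 0.0232 by edgeR). SLC7A11, the cystine importer that also uses SLC3A2 as its heavy chain, was the only transporter above 0, at 79.2 and 63.6 CPM against 153 and 111 CPM. Its groups did not overlap, at 0.89 on the log2 scale (SE 0.23, adjusted p = 0.0650 by edgeR). SLC7A1, an arginine and lysine importer, had 250 and 234 CPM against 196 and 230 CPM. SLC1A5, a glutamine transporter, and SLC38A2, a sodium-coupled importer of small neutral amino acids, overlapped between the groups at log2 fold changes of -0.27 and -0.35. None of these 3 passed the test.

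The remaining targets held the largest rise of the list. VLDLR, a lipoprotein receptor on chromosome 9 from 2621793 to 2654485, had 0.364 and 0.220 CPM in MCF10A, from 8 and 5 reads, and 3.25 and 13.2 CPM in G12V cells, from 76 and 296 reads. It rose by 4.79 on the log2 scale (SE 0.84, adjusted p = 0.0200 by edgeR), from a level close to the limit of detection. STC2, a secreted glycoprotein on chromosome 5 from 172741726 to 172756506, had 66.9 and 49.9 CPM against 125 and 175 CPM and rose by 1.36 (SE 0.25, adjusted p = 0.0237 by edgeR). For both genes the 2 groups were apart. CHAC1, which degrades glutathione, had 1.45 and 0.440 CPM against 2.05 and 11.7 CPM, with 1 G12V library making most of its log2 fold change of 2.86 (SE 0.95, adjusted p = 0.122). XPOT, which exports tRNAs from the nucleus, had 242 and 196 CPM against 326 and 446 CPM, apart but short of the threshold (adjusted p = 0.0934).

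The aminoacyl-tRNA synthetases, which charge tRNAs with their amino acids, lay close together. None of the 12 was DE, 11 had a log2 fold change above 0, and in 11 both G12V libraries were above both MCF10A libraries, with a median of 0.68 and a range of -0.15 to 0.85. MARS, the methionine enzyme, was at the upper end with 152 and 116 CPM against 200 and 281 CPM (adjusted p = 0.0938 by edgeR). CARS, the cysteine enzyme, had 65.2 and 67.3 CPM against 88.0 and 143 CPM, and LARS, the leucine enzyme, 260 and 207 CPM against 372 and 417 CPM. In these 3 genes the groups were apart. SARS, the serine enzyme, was the exception at 164 and 201 CPM against 136 and 194 CPM, which overlapped. The other 8, AARS, EPRS, GARS, IARS, NARS, TARS, WARS and YARS, lay between 0.29 for TARS and 0.75 for GARS and IARS on the log2 scale. YARS overlaps S100PBP on the opposite strand, so part of its reads is uncertain, as holds for ALDH1L2 beside C12orf45 in the annotation of the Nutlin-3a table.

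**Figure D2:**
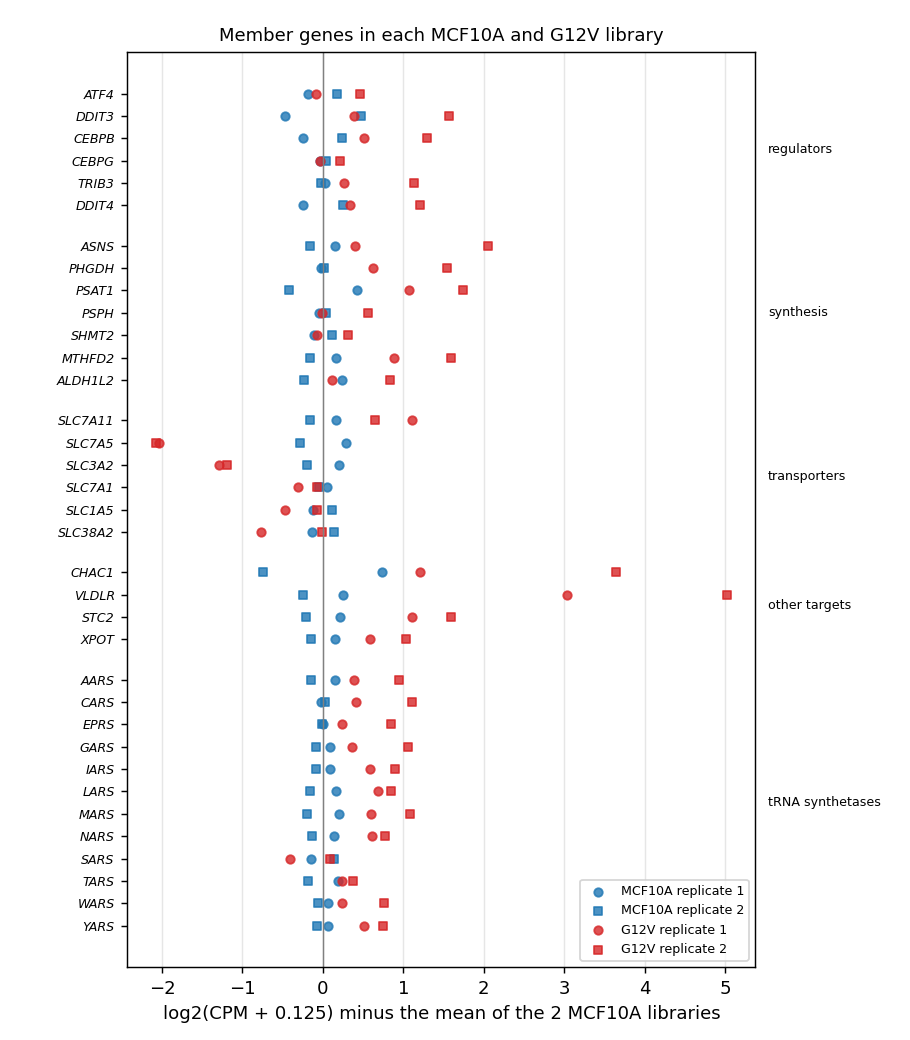
Level of each member in the 4 untreated libraries, as log2 of CPM plus a small constant, minus the mean of the 2 MCF10A libraries (x axis), members on the y axis in groups by role, a point for each library. The second G12V library is the highest of the 4 in 28 of 35 members.

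The 2 G12V libraries were not alike in these genes. The second was above the first in 33 of 35 members, where this held in 54.9% of all genes, and it was the highest of the 4 libraries in 28 members, where this held in 30.1% of all genes. Between the MCF10A libraries the second was above the first in 12 members, beside 49.4% of all genes. ASNS had 36.0 and 114 CPM in the 2 G12V libraries and CHAC1 2.05 and 11.7 CPM, while SLC7A11 (153 and 111 CPM) and SLC7A5 (584 and 569 CPM) were the 2 genes in which the second was not above the first. Without the second G12V replicate the median of the members was 0.36 in place of 0.75, and the log2 fold change of VLDLR was 3.45. The calls also rested on single libraries: no member was DE without the first MCF10A replicate, where no gene of the table was, and without the second MCF10A replicate MTHFD2 (adjusted p = 0.112) and STC2 (0.0516) were lost, while MTHFD2 (0.0936) and SLC3A2 (0.0559) were lost without the second G12V replicate and SLC3A2 (0.0566) without the first, where 14 members and 2129 of all 14830 genes tested were DE.

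Further genes of the pathway were read from other lists. Of all 14376 tested genes 5.01% were DE higher and 5.95% DE lower, so 1 DE gene in a list of 15 or 17 is close to these shares. The groups were apart upwards in 27.5% of all genes and downwards in 27.4%. DESeq2 called 6.77% of all genes higher and edgeR's exact test 8.56%. Whether any list differed from these shares was not tested. Of 15 genes for the eIF2 kinases, the phosphatase and eIF2B, 1 was DE higher, and their median log2 fold change was 0.20, with both G12V libraries above both MCF10A libraries in 7. This gene, PPP1R15B, which encodes the constitutive partner of the eIF2 phosphatase, had 152 and 116 CPM against 250 and 272 CPM and rose by 0.96 (SE 0.21, adjusted p = 0.0405 by edgeR). Of 26 other ATF4 targets and partners tested, PYCR1 and VEGFA were DE higher, and the median was 0.35, with the groups apart upwards in 10 and downwards in 1. PYCR1, which makes proline in mitochondria, had 26.3 and 18.3 CPM against 57.6 and 83.1 CPM and rose by 1.66 (SE 0.28, adjusted p = 0.0186). VEGFA, an angiogenic growth factor, had 59.2 and 35.7 CPM against 141 and 169 CPM and rose by 1.71 (SE 0.28, adjusted p = 0.0167). In all 3 genes the groups were apart. None of 11 other cytosolic synthetase genes was DE (median 0.33), and 5 were apart upwards. None of 16 genes of the other arms of the unfolded protein response was DE either (median 0.26), but 11 were apart upwards and 1 downwards, and DESeq2 and edgeR's exact test each called 3 of them, HSPA5, XBP1 and ERN1, named after their values were seen. Of 17 mitochondrial synthetases 1 was DE, VARS2, which was lower at 71.0 and 53.6 CPM against 26.9 and 24.0 CPM (log2 fold change -1.29, SE 0.22, adjusted p = 0.0191), and their median was -0.034, with 2 apart upwards and 6 downwards. The medians of these lists lay below those of the synthesis genes and the synthetases among the members, but above that of the member transporters (-0.31). These differences were not tested.

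Activation of p53 by Nutlin-3a left no member DE. The treatment itself was visible: CDKN1A, the p53-induced cell cycle inhibitor, had 624, 673 and 666 CPM under DMSO and 2712, 2688 and 3349 CPM under Nutlin-3a, a rise of 2.16 on the log2 scale (SE 0.13, adjusted p = 0.000516 by edgeR). MDM2 rose by 2.54 (SE 0.18, adjusted p = 0.00133). GDF15, a secreted factor that both p53 and ATF4 can induce and which was among the 26 other ATF4 targets tested, had 37.4, 35.4 and 26.4 CPM against 210, 218 and 184 CPM and rose by 2.63 (SE 0.15, adjusted p = 0.000516). Of the 35 members 0 were DE, where 0.170% of all 13529 tested genes were. None had an unadjusted p under 0.05 either, beside 3.42% of all genes. DESeq2 and edgeR's exact test called 0 members too, beside 0.477% and 0.621% of all genes. With shares of called genes this small, 0 of 35 says little about the members. The log2 fold change was above 0 in 15 members and below 0 in 20, with a median of -0.015 beside 0.0066 over all genes, and the groups did not overlap in 0 members in either direction (3.70% of all genes were apart upwards and 4.38% downwards). The members' standard errors ran from 0.13 to 1.01 on the log2 scale, and from 0.070 to 0.26 with the replicate number as a block, which called 0 members too.

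ATF4 had 579, 552 and 398 CPM in the DMSO libraries numbered 1, 2 and 3 and 531, 637 and 433 CPM in the Nutlin-3a libraries, with a log2 fold change of 0.07 (SE 0.19). DDIT4, which p53 can also induce, had 264, 242 and 143 CPM against 235, 237 and 193 CPM, with a log2 fold change of 0.04 (SE 0.22). In both genes the treatments overlapped, and the libraries numbered 3 of both treatments were the lowest. The largest differences were negative, in CHAC1 (-0.35), STC2 (-0.31) and SLC38A2 (-0.25), and ALDH1L2 had the highest value of the list at 0.16. CHAC1 had 62.1, 69.5 and 13.0 CPM under DMSO and 46.9, 61.5 and 4.80 CPM under Nutlin-3a. STC2 had 332, 390 and 73.9 CPM against 274, 306 and 63.2 CPM. SLC38A2 had 781, 711 and 394 CPM against 701, 592 and 298 CPM. For each replicate number of these 3 genes the Nutlin-3a library was below its DMSO library, but by less than the distance between the highest and the lowest number, and the adjusted p of STC2 with the replicate number as a block was 0.0768, the smallest of any member.

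**Figure D3:**
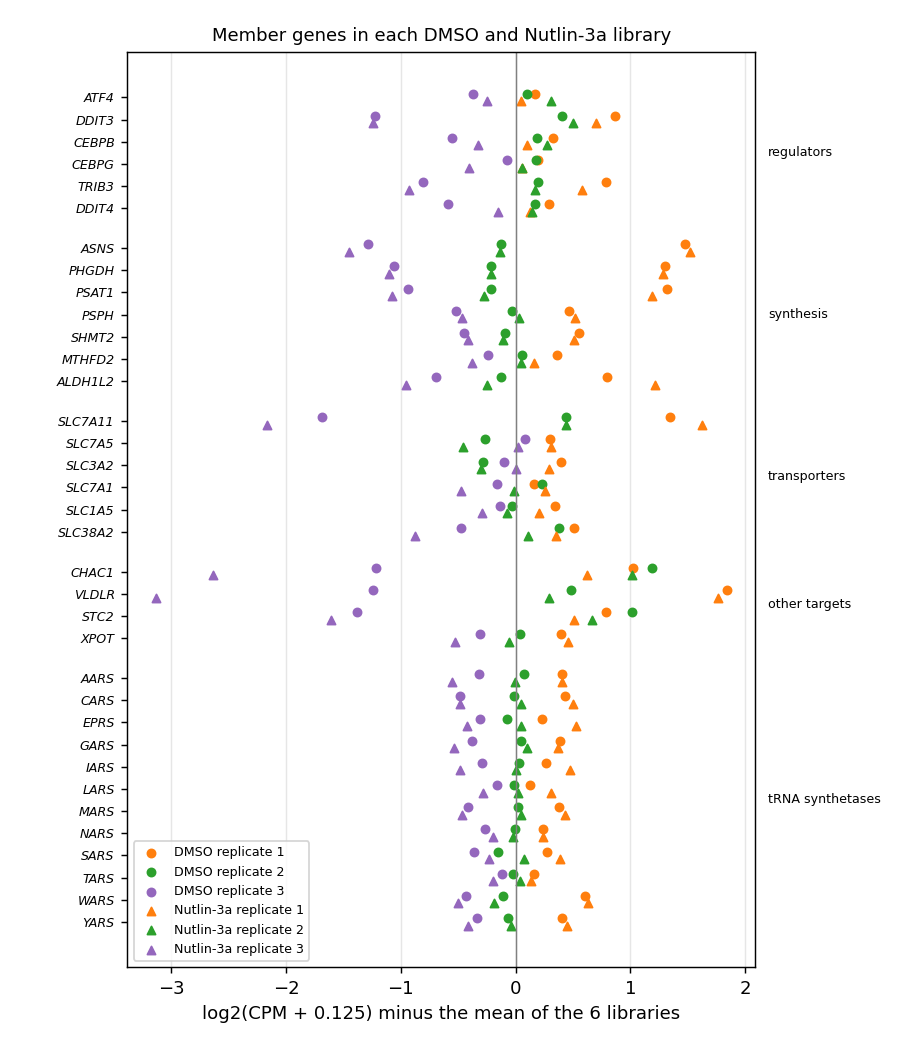
Level of each member in the 6 libraries of the Nutlin-3a experiment, as log2 of CPM plus a small constant, minus the mean of the 6 (x axis), members on the y axis by role, circles for DMSO, triangles for Nutlin-3a and a colour for each replicate number. Circles and triangles of a colour lie close together in most members, but differ by up to 1.89 in VLDLR and 1.41 in CHAC1. Number 3 is the lowest in 33 of 35 members.

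The members differed between the replicate numbers instead. In the fit of treatment and replicate number, the replicate terms were called (adjusted p under 0.05 by edgeR) in 34 of the 35 members, where 24.5% of all tested genes were called. The member not called was TARS, with an adjusted p of 0.0583. Averaged over the 2 treatments, number 1 was the highest in 31 members and number 2 in 4, which were ATF4, CEBPB, CHAC1 and STC2, and number 3 in 0. Number 3 was the lowest in 33 and number 2 in the other 2, which were SLC7A5 and SLC3A2. Of all 13529 tested genes 4826 were highest in number 1 and 4898 lowest in number 3. Both libraries of number 1 were above the other 4 in 27 members (16.0% of all genes), both of number 3 were below the other 4 in 33 (16.1%), and both held in 25 (6.24%). The distance between the highest and the lowest number had a median of 0.84 on the log2 scale, beside 0.32 over all genes. It was larger than the largest difference between the treatments within a number in 35 of 35 members, where this held for 54.8% of all genes.

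ASNS spread widely. It had 321 CPM under DMSO and 330 CPM under Nutlin-3a in the libraries numbered 1, 106 and 105 CPM in those numbered 2, and 47.1 and 42.0 CPM in those numbered 3, a distance of 2.87 on the log2 scale (adjusted p = 2.85e-08 by edgeR for the replicate terms). PHGDH had 375 and 369 CPM, 131 and 131 CPM, and 72.6 and 70.8 CPM in the same order, a distance of 2.37. PSAT1 had 540 and 493 CPM, 187 and 179 CPM, and 113 and 102 CPM, a distance of 2.26. In these 3 enzymes the treatments almost coincided within a number while the numbers stood apart. All 7 synthesis genes were called and all were highest in number 1 and lowest in number 3, with a median distance of 1.83. MTHFD2 had the smallest distance of them, 0.58, with 378 and 330 CPM, 305 and 304 CPM, and 248 and 225 CPM.

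Of the transporters SLC7A11 spread the most, with 550 and 665 CPM in number 1, 293 and 293 CPM in number 2 and 67.2 and 48.0 CPM in number 3, a distance of 3.41 (adjusted p = 1.56e-07 by edgeR). SLC7A5 went another way, with 4908 and 4935 CPM, 3310 and 2906 CPM, and 4223 and 4034 CPM, so that number 2 was the lowest. Its partner SLC3A2 had 1566 and 1455 CPM, 977 and 967 CPM, and 1112 and 1194 CPM. The 2 chains of this exchanger therefore had the same order of numbers, at distances of 0.67 and 0.63. SLC7A1, SLC1A5 and SLC38A2 were called with distances of 0.53, 0.49 and 1.11, and all were lowest in number 3.

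The regulators and the remaining targets were all called. DDIT3 had 14.3 and 12.7 CPM in number 1, 10.4 and 11.1 CPM in number 2 and 3.27 and 3.22 CPM in number 3, a distance of 2.02, though its overlap with MARS is 981 bases in this annotation. TRIB3 had 288 and 250 CPM, 191 and 187 CPM, and 95.6 and 87.4 CPM, a distance of 1.55. ATF4 differed less, by 0.51, and its numbers 1 and 2 overlapped. VLDLR had the largest distance of the list, 3.99, from 5.86 and 5.54 CPM in number 1, 2.21 and 1.92 CPM in number 2 and 0.583 and 0.0658 CPM in number 3, but the last 2 values rest on 10 reads and 1 read. CHAC1 and STC2, at distances of 3.03 and 2.34, had numbers 1 and 2 close together and number 3 far below. Of the 12 synthetases 11 were called, and in all 12 both libraries of number 1 were the highest and both of number 3 the lowest. Their distances were smaller, from 0.30 in TARS to 1.08 in WARS, the tryptophan enzyme, which had 185 and 188 CPM, 112 and 107 CPM, and 90.1 and 85.9 CPM.

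**Figure D4:**
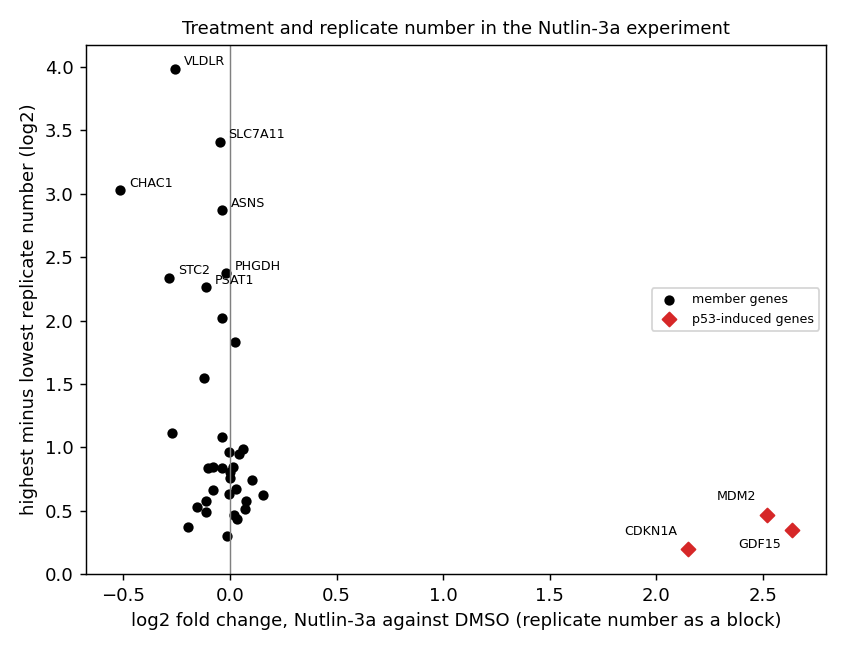
Log2 fold change of Nutlin-3a against DMSO with the replicate number as a block (x axis) and distance between the highest and lowest replicate number on the log2 scale (y axis), a point for each member, with CDKN1A, MDM2 and GDF15 as diamonds. Members spread upwards along 0, and the p53-induced genes lie to the right, at distances of 0.20 (CDKN1A), 0.35 (GDF15) and 0.47 (MDM2).

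The lists around the members were read in the same way. Over all 13529 tested genes 24.5% were called, with a median distance of 0.32. Of these 13529 genes 4826 were highest in number 1, 3714 in number 2 and 4989 in number 3, and 4898 were lowest in number 3. Of 26 other ATF4 targets and partners 22 were called between the replicate numbers, 18 of the 26 were highest in number 1 and 20 lowest in number 3, with a median distance of 0.89. Of 11 genes for other cytosolic synthetases and their scaffold proteins 2 were called, FARSA and KARS, and 7 of the 11 were highest in number 3. Of 17 mitochondrial synthetases 6 were called. In the other arms of the unfolded protein response, which raise chaperones of the endoplasmic reticulum, 11 of 16 genes were called, but 14 of 16 were highest in number 2 and 15 lowest in number 3. Of 16 genes for the eIF2 kinases, the phosphatase and eIF2B 4 were called, a share near that of all genes, with a median distance of 0.18. The 4 were EIF2AK3, EIF2S1, EIF2S3 and PPP1R15A. The genes named in this paragraph were chosen after their values were seen.

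**Figure D5:**
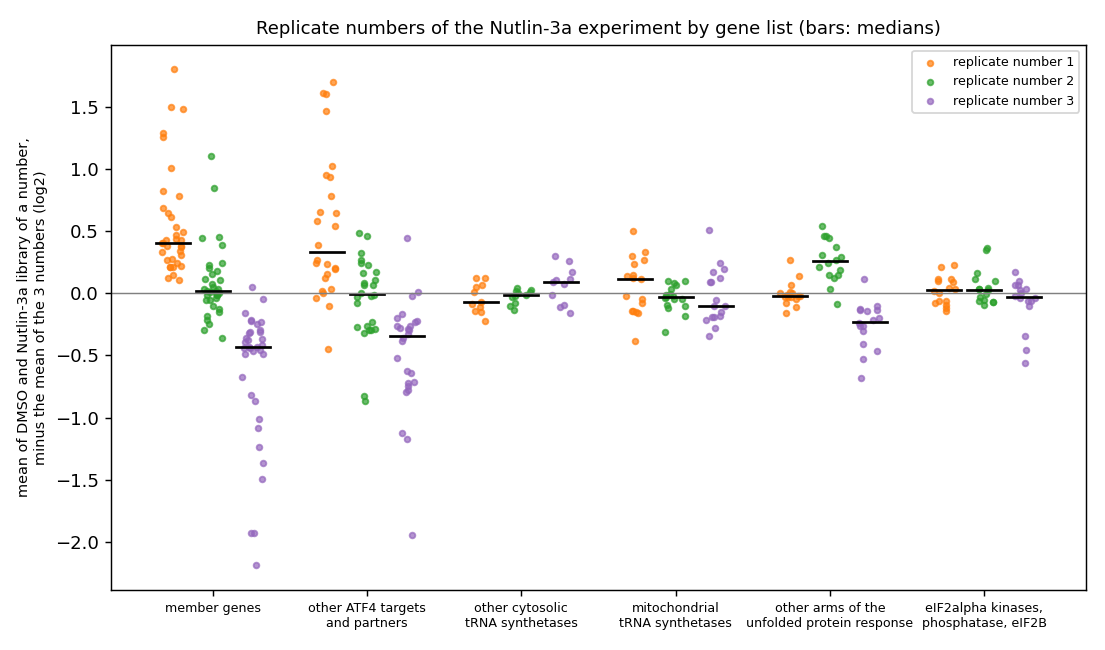
Deviation of each replicate number from the mean of the 3 numbers on the log2 scale (y axis) for the genes of each list (x axis), with a line at the median of the list. The members have medians of 0.41, 0.017 and -0.43 for numbers 1, 2 and 3.

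The labels give no meaning to the replicate numbers, so a culture, a day and a sequencing run cannot be told apart. Total counts under DMSO and Nutlin-3a were 17378734 and 16018472 in number 1, 16402941 and 16756691 in number 2 and 17137566 and 15453226 in number 3. The order of the numbers in depth differed between the treatments, and the part of depth in the spread of the members was not tested. Epithelial markers also differed between them, with 7 of 8 called and summed levels of 10463 and 11160 CPM, 9333 and 9686 CPM, and 9698 and 10166 CPM, but single markers went different ways: 4 of 8 were highest in number 1, 3 in number 3 and 1 in number 2, and 6 were lowest in number 2. Summed mesenchymal markers were lowest in number 3, at 662 and 616 CPM beside 760 to 858 CPM in the other 4 libraries. The part of these shifts in the spread of the members was not tested. The 13 members with the response element core in a matched promoter had a median distance of 0.76 between the numbers and a median log2 fold change of 0.69 in G12V cells, and the 16 matched members without it 0.96 and 0.82.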

How the data were processed

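Poly(A) RNA was sequenced from 4 untreated and 6 treated libraries. The authors used TopHat to align the reads to hg19 and HTSeq to count them, and deposited raw counts per gene, with no normalization, in one table for each experiment. The annotations, which differ between the tables, and the strand setting of the counting are not given in the sources used here. Both tables give 0-based starts, which are written 1-based.

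Each experiment was fitted apart, on all of its genes, with edgeR 4.0.16 in R 4.3.3 (limma 3.58.1): filterByExpr left 14376 and 13529 genes, followed by TMM factors, the quasi-likelihood F-test and Benjamini-Hochberg adjustment. CPM use TMM-scaled library sizes, log2 fold changes a prior count of 0.125, and SE was taken as the size of the fold change (log2) divided by the root of F. Replicate numbers were tested by an F-test of their terms in a model with the treatment. In the Nutlin-3a experiment libraries of the same label number deviated together (r of 0.65, 0.68 and 0.70), so the numbers pair the libraries. Other pairs had -0.52 to -0.22, which is no separate evidence, because deviations within a treatment cancel out. The labels call replicates biological without naming separate cultures, so p-values measure the spread between these libraries.

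All 35 members were named, the genes of the pathway lists only where DE or where few were called. The members and the lists were chosen with earlier results of these data known. The fits were tested on simulated counts. Other settings tried were edgeR's exact test, DESeq2 1.42.0, other scalings and filters, a prior count of 2, the replicate number as a block and each library left out. Promoters are from RefSeq. Promoters and figures were handled in Python 3.11.15 (pandas 2.3.3, numpy 2.4.6, matplotlib 3.10.9).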

Additional observations from a re-analysis of the deposited data

How the results depend on the processing

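In G12V cells 5 members were DE, and 14 with DESeq2, 16 with edgeR's exact test, 24 with the replicate number as a block, and 0 (without the first MCF10A replicate) to 14 (without the first G12V replicate) with 1 library left out. The other scalings and filters gave 4 to 6. Of the 24 under the block 22 were higher and 2 lower, beside 28.9% of all genes DE there. The 22 included 4 regulators, 4 synthesis genes and 9 synthetases, and the 2 lower were transporters. The numbers of the untreated libraries pair nothing that the labels state. The deviations correlated at 0.55 within a number and at -0.55 across numbers. With 2 libraries a group these values must be opposite, but which of them is positive is not fixed. Whether the numbers pair these libraries was not tested. Where an arm had 1 library left, that library was assumed to vary like the other group. Over all genes the replicate block gave 4158 DE genes in place of 1575, DESeq2 2292, the exact test 2536, the fit without the first G12V replicate 2129 and the fit without the first MCF10A replicate 0. The median of the members, 0.75, ranged from 0.36 to 0.84 with 1 library left out.

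MTHFD2 also lost its call with no filter on low counts (adjusted p = 0.0539). Log2 fold changes near 0 changed sign with 1 library left out, between -0.10 and 0.45 for ATF4, -0.036 and 0.21 for CEBPG, -0.0069 and 0.56 for PSPH, -0.077 and 0.30 for SHMT2 and -0.42 and 0.083 for SARS in G12V cells. Under Nutlin-3a the ranges were -0.082 to 0.20 for ATF4, -0.19 to 0.20 for DDIT4, -1.11 to 1.06 for ASNS, -0.50 to 0.039 for SLC38A2, -0.89 to 0.17 for CHAC1 and -0.75 to 0.13 for STC2. With library totals alone DDIT4, at 0.04, was -0.0036 and ASNS, at 0.0090, was -0.028, and ASNS was -0.040 with the replicate block. The cause of these changes was not tested.

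The median of the members under Nutlin-3a, -0.015, ranged from -0.26 to 0.20 with 1 library left out. No member was DE under Nutlin-3a in any alternative run, and the replicate block changed no call of a member there, while over all genes 165 were DE with the block in place of 23, 81 with DESeq2, 84 with the exact test, 99 with no filter and 7 to 11 with 1 library left out. The count of members called between the replicate numbers, 34, was 31 to 35 in all alternatives run. Depth limits VLDLR most, with 5 and 8 reads in MCF10A.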
